A study of Rattus norvegicus with 4 samples.

Results

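Endothelial cells with Aqp1 were selected on measured values in droplet libraries of the rat pituitary, as the barcodes that carried RNA of several vessel genes and at least 2 unique molecular identifiers (UMIs, single counted transcripts) of Aqp1. The limits were 1000 UMIs and 500 genes as the least, 20% mitochondrial UMIs as the most, with Prl, Gh1 and Pomc each under 10% of UMIs, and a UMI of at least 3 of the vessel genes Kdr, Tek, Emcn, Adgrl4, Aplnr and Plvap. These limits gave 255 members among 567 endothelial barcodes, out of 20381 barcodes kept by the depth and mitochondrial limits and 32455 in all. The other endothelial barcodes were 292 with no Aqp1 UMI, called Aqp1-zero here, and 20 with 1 UMI. Pecam1 was not used here, so 6 of the 7 vessel genes of the rule were read. Because measured values chose the members, Aqp1, the vessel genes of the rule, the 3 hormone genes and the marker genes Car4, Wfdc1 and Clic5 are given as description, with no test.

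The study concerned folliculostellate cells, which support the hormone cells of the anterior lobe, and asked whether they act as astroglia and as stem cells. All animals were untreated female Sprague Dawley rats aged 75 days at random stages of the cycle. The dissected posterior lobes and the dissected anterior lobes of 30 pooled glands gave 1 library each, and 30 pooled whole glands gave 1 suspension run on 2 lanes, so the lanes are technical repeats. The libraries held 61981865 UMIs (posterior), 71490425 and 63820100 (whole-gland lanes 1 and 2) and 72754998 (anterior). Glands were dispersed with trypsin and EDTA and counted with a 10x Chromium 3′ kit. No label names a cell type or an enrichment of vessel cells, and with 1 library a lobe no test between lobes was possible.

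Capillaries of both pituitary lobes are fenestrated, with pores that let hormones and signals cross between blood and tissue. The anterior lobe receives portal blood that has already passed a first capillary bed at the base of the hypothalamus, whereas the posterior lobe has its own arterial supply and surrounds the endings of the vasopressin and oxytocin neurons. Aqp1 encodes a water channel found in many capillaries outside the blood-brain barrier, in red blood cells and in kidney tubules. Car4 encodes a carbonic anhydrase anchored on the cell surface, Wfdc1 a secreted WAP-domain protein, Clic5 a member of the chloride intracellular channel family, and Kdr the main receptor for vascular endothelial growth factor (VEGF).

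To show the DNA just upstream of these genes, the 150 bases before the RefSeq start are printed for the marker and leading genes that had an entry (6 of 8 looked up, matched by symbol, assembly GRCr8), together with Plvap, the fenestral diaphragm gene, found in both Aqp1-positive and Aqp1-zero barcodes. Capitals mark 4 motifs searched on both strands: GGAAG, the core of sites of ETS factors; CCACCC, bound by KLF factors; CCGCCC, the GC box; and TATAAA, the TATA box.
Aqp1 (chr4:85812634-85812783, + strand): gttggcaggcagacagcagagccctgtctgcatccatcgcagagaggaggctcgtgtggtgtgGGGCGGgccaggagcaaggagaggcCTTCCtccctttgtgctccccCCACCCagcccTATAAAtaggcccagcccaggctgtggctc
Car4 (chr10:70325208-70325357, + strand): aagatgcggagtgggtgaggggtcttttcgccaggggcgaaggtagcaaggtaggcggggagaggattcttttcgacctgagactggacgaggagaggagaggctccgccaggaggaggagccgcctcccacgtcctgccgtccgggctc
Clic5 (chr9:24310965-24311114, - strand): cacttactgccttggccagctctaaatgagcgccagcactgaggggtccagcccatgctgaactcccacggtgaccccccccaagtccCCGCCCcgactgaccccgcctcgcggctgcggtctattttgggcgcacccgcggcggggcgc
Ramp3 (chr14:85741164-85741313, + strand): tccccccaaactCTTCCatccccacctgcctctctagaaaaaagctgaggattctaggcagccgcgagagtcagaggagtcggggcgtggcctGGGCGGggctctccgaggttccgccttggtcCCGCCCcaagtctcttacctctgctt
Cxcl12 (chr4:152060631-152060780, + strand): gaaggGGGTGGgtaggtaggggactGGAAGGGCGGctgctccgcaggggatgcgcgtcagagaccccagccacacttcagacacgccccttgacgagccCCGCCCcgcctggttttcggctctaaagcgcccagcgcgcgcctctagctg
Plvap (chr16:18231280-18231429, - strand): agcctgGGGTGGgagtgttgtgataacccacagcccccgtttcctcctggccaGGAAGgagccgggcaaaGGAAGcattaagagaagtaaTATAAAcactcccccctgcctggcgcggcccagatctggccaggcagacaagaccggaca
The Aqp1 stretch held 1 match to each motif and ended close to a TATA box. Car4 held none of the 4, Clic5 held 1 GC box, Ramp3 held 1 ETS core and 2 GC boxes, and Plvap held 2 ETS cores, 1 KLF motif and 1 TATA box. Cxcl12 held 1 ETS core that overlapped a GC box, a further GC box and 1 KLF motif. Among 27457 rat promoters of the same length, 47.0% held the ETS core, 18.3% the KLF motif, 27.8% the GC box and 8.16% the TATA box, and a match is a description of letters, not of a bound site.

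Aqp1-positive barcodes made up most of the endothelium of the posterior library and little of the endothelium elsewhere. They were 196 of 243 posterior endothelial barcodes (80.7%, exact 95% binomial interval 75.1 to 85.4%), 34 of 152 in whole-gland lane 1 (22.4%, 16 to 29.8%), 20 of 100 in lane 2 (20%, 12.7 to 29.2%) and 5 of 72 in the anterior library (6.94%, 2.29 to 15.5%). The posterior interval lies above the others and does not overlap them, and the intervals of both lanes overlap. These intervals cover counting error only. As a share of all kept barcodes, Aqp1-positive endothelium was 4.98% of the posterior library, 0.595% and 0.395% of the whole-gland lanes and 0.0882% of the anterior library. Endothelial barcodes as a whole were 6.17%, 2.66%, 1.97% and 1.27% of the same libraries.

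**Figure D1:**
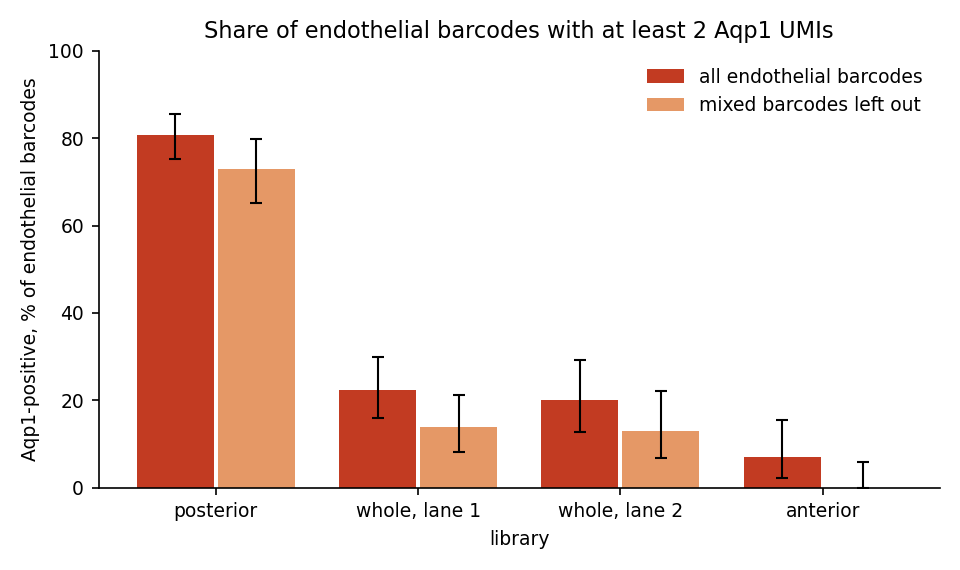
Share of endothelial barcodes with at least 2 Aqp1 UMIs in each library (vertical axis, percent), for all endothelial barcodes and with mixed barcodes (at least 2 markers of mural cells, fibroblasts or macrophages) left out. Bars are shares and lines exact 95% binomial intervals; the posterior library stands at 80.7% and 72.9%, the anterior library at 6.94% and 0.

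The order was the same at equal depth. After every barcode was thinned to 2000 UMIs, which left out 32 shallower ones, at least 1 Aqp1 UMI was found in 75.6% of posterior, 18.3% and 15.2% of whole-gland and 0 of 67 anterior endothelial barcodes (upper 95% limit 5.36%). In the same barcodes at full depth the shares were 83.3%, 27.5%, 25% and 11.9%. The median depth of members was 5800 UMIs in the posterior library, 7025 and 5734.5 UMIs in the whole-gland lanes and 23093 UMIs in the anterior library. That of Aqp1-zero barcodes was 4438, 7823, 7691.5 and 8179.5 UMIs in the same order. The median was thus highest for the 5 anterior members, though single barcodes of other libraries were deeper. No barcode sequence was shared between libraries among the members, and the sequences of 2 members recurred among kept barcodes of another library. At a Scrublet score above 0.25, a doublet score, stood 11 members, 9 posterior and 2 of lane 1.

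Aqp1 counts were spread widely among members. The quartiles were 6, 10 and 15 UMIs a barcode, the highest count was 64, and 128 of the 255 members had 10 or more. The median level per barcode, in CPM (UMIs scaled to a common total per barcode), was 1738 in posterior members, 1545 and 771 in members of whole-gland lanes 1 and 2, and 265 in anterior members. Lane 2 and the anterior library were low and the posterior library and lane 1 high. At the edge of the rule, 13 barcodes had exactly 2 Aqp1 UMIs, with 25.4 CPM of Car4, 25.4 CPM of Wfdc1 and 1493 CPM of Kdr in their sum. The 20 barcodes just outside it, with 1 UMI, had 24.5, 16.3 and 1807 CPM of the same genes. Barcodes on both sides of the edge thus had little Car4 and Wfdc1.

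Kept barcodes held 78.1% of their Aqp1 UMIs in the members (3165 UMIs). Outside endothelium, Aqp1 was found in mural barcodes (pericytes and smooth muscle of the vessel wall; 352 CPM over 48 barcodes) and in fibroblast barcodes (167 CPM over 227). Folliculostellate barcodes had 5.22 CPM, lactotroph barcodes 1.67 CPM, pituicyte barcodes, the glia of the posterior lobe, 0.930 CPM and macrophage barcodes 0.409 CPM. Lymphocyte barcodes (0 of 41) and Schwann barcodes (0 of 61) had no Aqp1 UMI (upper 95% limits 8.60% and 5.87%). The members' sum stood at 1409 CPM, a level set in part by the rule, and all endothelial barcodes together stood at 599 CPM. By library the latter had 1326, 230, 132 and 33.6 CPM in the posterior library, lanes 1 and 2 and the anterior library. Mural barcodes had 105, 860, 1321 and 431 CPM and fibroblast barcodes 29.6, 493, 272 and 653 CPM in that order. Endothelial barcodes were thus above both in the posterior library only.

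Car4, Wfdc1 and Clic5 were detected in members of 3 libraries and were at 0 in the anterior ones. Car4 stood at 287, 205, 83.1 and 0 CPM in members of the posterior library, whole-gland lanes 1 and 2 and the anterior library, the order kept throughout, against 9.48, 2.77, 0 and 0 CPM in Aqp1-zero barcodes. Wfdc1 stood at 422, 302, 83.1 and 0 CPM in members and 0, 1.85, 0 and 4.41 CPM in Aqp1-zero barcodes, and Clic5 at 176, 71.3, 58.7 and 0 CPM in members and 2.37, 1.85, 4.71 and 4.41 CPM in Aqp1-zero barcodes. In the first 3 libraries every member sum was above every Aqp1-zero sum of the same gene. The 5 anterior members had no UMI of Car4, Wfdc1 or Clic5, so the markers go against the label there, and these barcodes are members by the rule alone.

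Not every member carried the markers. At least 2 of Car4, Wfdc1 and Clic5 were detected in 151 of 255 members (59.2%) and in 1 of 292 Aqp1-zero barcodes, and 48 members had none. By library the share was 66.3% in posterior members, 41.2% and 35.0% in the lanes and 0 of 5 in the anterior library. After thinning to 2000 UMIs, Wfdc1 was detected in 41.9% of members and 0.741% of Aqp1-zero barcodes (63.1% and 1.03% at full depth). Thinned shares for Car4 were 34.3% and 1.11% (50.2% and 1.37% unthinned), and for Clic5 27.4% and 1.11% (55.3% and 2.40% unthinned).

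**Figure D2:**
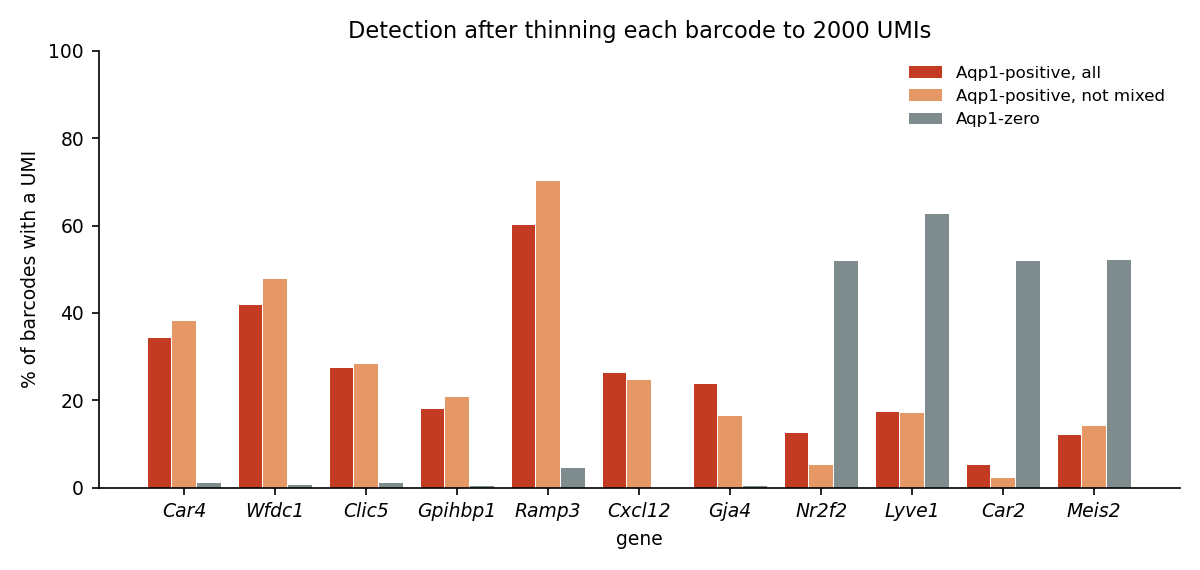
Percent of barcodes with at least 1 UMI of each gene after thinning every barcode to 2000 UMIs, for all Aqp1-positive barcodes (248), those not mixed (134) and Aqp1-zero barcodes (270). Car4, Wfdc1, Clic5, Gpihbp1, Ramp3, Cxcl12 and Gja4 were detected mainly in Aqp1-positive barcodes and Nr2f2, Lyve1, Car2 and Meis2 mainly in Aqp1-zero barcodes.

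Kdr and Plvap, genes of vessels in general and part of the rule, are given with no test. Kdr stood at 942, 1173, 1428 and 779.5 CPM in members and 1621, 1489.6, 1334 and 1159 CPM in Aqp1-zero barcodes, and Plvap at 4137, 3867, 3579.6 and 1699 CPM in members and 4724, 4022, 3649 and 3276 CPM in Aqp1-zero barcodes. Within libraries, Plvap was lower in members in all 4 and Kdr in all but lane 2. Among barcodes that were not mixed, Plvap stood at 5648, 6456 and 5172 CPM in members and 4818, 4187 and 3847 CPM in Aqp1-zero barcodes of the posterior library and lanes 1 and 2, higher in members in each. Cdh5, the cadherin of endothelial junctions, stood at 392, 377, 430.3 and 329.8 CPM in members and 502, 538, 474 and 467 CPM in Aqp1-zero barcodes, with every member sum below every Aqp1-zero sum. Of 12 general endothelial markers, 8 were tested and none was called in either direction, with Cdh5 at a log2 fold change of -0.35 ± 0.16 SE, adjusted p = 0.292. Cldn5, a tight junction protein of barrier vessels, had at most 9.78 CPM in members and 12.6 CPM in Aqp1-zero barcodes.

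RNA of vessel-wall and connective tissue cells was much higher in members than in Aqp1-zero barcodes. The summed level of 5 mural markers (Rgs5, Pdgfrb, Notch3, Acta2 and Myh11) was 2706, 2991, 4034 and 3158 CPM in members and 61.6, 268, 113 and 212 CPM in Aqp1-zero barcodes. The summed level of 5 fibroblast markers was 2582, 1561, 1291 and 3948 CPM in members and 45.0, 165, 104 and 228 CPM in Aqp1-zero barcodes; Col1a2 was at 0 in members and the other 4 were detected. Macrophage markers summed to 810, 263, 694 and 0 CPM in members and 16.6, 27.7, 146 and 116 CPM in Aqp1-zero barcodes. At least 2 of 5 mural markers were detected in 86 members and 11 Aqp1-zero barcodes, at least 2 fibroblast markers in 83 and 15, and at least 2 macrophage markers in 21 and 13. Barcodes that met any of these, called mixed, were 114 of 255 members, with a median of 13058 UMIs, and 25 of 292 Aqp1-zero barcodes, while the 141 members that met none had a median of 3794 UMIs. All 5 anterior members were mixed. Among 4 tested fibroblast markers 4 were called higher in the fit with all members described below, as were 5 of 5 mural markers and C1qa and C1qc of 5 macrophage markers; in the other panels Edn3 (folliculostellate) and Pdpn (lymphatic) were higher and Lhb (gonadotroph) and Itga2b (platelet) lower.

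With mixed barcodes left out, the share of members stayed ordered in the same way, at 72.9% (65.2 to 79.7%) in the posterior library, 13.8% and 13.1% in the lanes and 0 of 60 in the anterior library (upper limit 5.96%). The markers stood higher than among all members in each library, except Wfdc1 in lane 2: Aqp1 at 2209, 2504 and 688 CPM in the posterior library and lanes 1 and 2, Car4 at 387, 595 and 110.0 CPM, Wfdc1 at 623, 799 and 82.5 CPM and Clic5 at 200.1, 162 and 96.3 CPM. Fibroblast markers then summed to 38.9, 67.7 and 55.0 CPM. Mural markers still summed to 713, 1435 and 385 CPM, nearly all of it Rgs5, a regulator of G protein signalling found mainly in pericytes, since a barcode with a single mural marker was not left out. The mural and fibroblast markers, Rgs5 among them, define mixed barcodes, so their levels after the exclusion were partly set by it. Rgs5 was called higher in both fits described below. For Rgs5 the log2 fold change was 4.31 ± 0.28 SE, adjusted p = 2.06e-05 with all members and 4.11 ± 0.22 SE, adjusted p = 3.69e-17 without mixed barcodes. The exclusion of mixed barcodes was chosen after values were seen, and every gene comparison below is given with and without them.

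**Figure D3:**
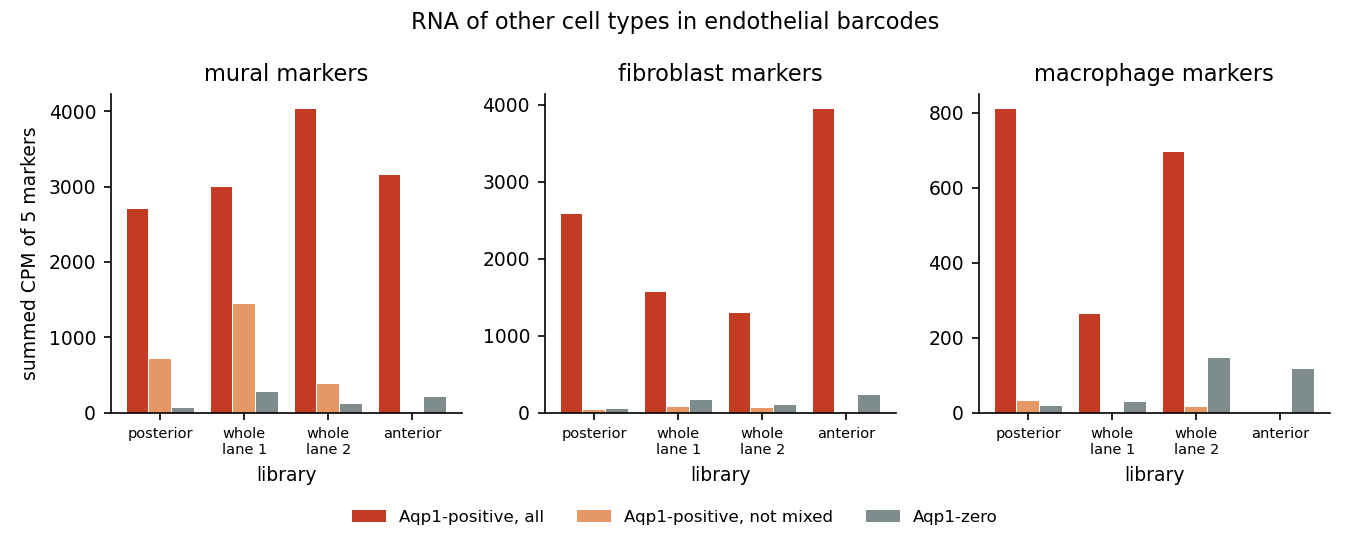
Summed level of 5 markers of mural cells, fibroblasts and macrophages (vertical axes, CPM) in all Aqp1-positive barcodes, those not mixed and Aqp1-zero barcodes, by library. All anterior members were mixed, so no bar stands there for members that were not; mural RNA is above the Aqp1-zero level in both sets of members.

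Against Aqp1-zero barcodes of the same libraries, members had more RNA of some capillary and arterial genes, among them Cxcl12, Gpihbp1, Gja4, Cd300lg and Ramp3. With all members, mural genes such as Acta2 and Notch3 were also called higher. Once mixed barcodes were left out, members had less RNA of Nr2f2, Igfbp5, Car2 and Egln3. UMIs were summed by library, with the lanes joined, and tested with edgeR's quasi-likelihood test with the library as a block (3 blocks, 6 sums, 2 residual degrees of freedom). Calls needed a Benjamini-Hochberg adjusted p under 0.05 and a log2 fold change of at least 1 in size. By that rule 354 of 7725 genes were higher in members (4.58%) and 51 were lower (0.66%). With mixed barcodes left out (2 blocks, 4 sums, 1 residual degree of freedom, so that leaving out either block leaves no test), 225 of 5865 genes were higher (3.84%) and 184 lower (3.14%). Without the posterior library 157 genes were higher and 6 lower with all members, and without lane 1 213 and 19. With all libraries, 153 of the 354 genes called higher and 46 of the 51 called lower with all members were also tested without mixed barcodes. Of these, 108 higher and 34 lower genes were called in the same direction in both fits, and Cxcl2 was called in opposite directions. Outside endothelium, 199 of the 354 higher genes had their highest level in mural or fibroblast barcodes, as did 68 of the 225. The same share over all tested genes is not reported here, so these counts cannot be read as an excess. The part of these cells' RNA in the calls was not tested. Blocks are libraries, so a difference in level between libraries is taken up by the block. The p-values rest on how the difference between members and Aqp1-zero barcodes varied between blocks, which may be technical. With so few residual degrees of freedom they also lean on a spread estimated over many genes. Small p-values therefore do not stand for many replicates.

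Genes were named from calls with at least 50 CPM in the higher group and the same direction in all 3 blocks. Their level also had to be at least 10% of that in the class with most. Larger calls outside these limits included Ces2, Tmem45b and Gpihbp1, at log2 fold changes of 7.34, 7.15 and 5.88. Within the limits, the 10 largest higher calls among all members were Cxcl12, Acta2, Ccl19, Dpt, Steap4, Notch3, Gja4, Cspg4, Gucy1b1 and Tpm2. Acta2, smooth muscle actin, and Notch3, the Notch receptor of mural cells, are members of the mural panel. Acta2 stood at 26.4, 265, 152 and 30.0 CPM in members and 0, 4.61, 1.57 and 2.94 CPM in Aqp1-zero barcodes. Notch3 stood at 86.7, 114, 137 and 189.9 CPM in members and 0, 6.46, 3.14 and 4.41 CPM in Aqp1-zero barcodes. Both were at 0 in members that were not mixed, a group defined in part by these markers. Ccl19, a chemokine, rested on the anterior library, with 5.66, 17.1, 19.6 and 1429 CPM in members against 0, 7.38, 6.28 and 1.47 CPM in Aqp1-zero barcodes. Its log2 fold change was 5.57 ± 1.10 SE, adjusted p = 0.0148, it had too few counts to be tested without the anterior library, and it was at 0 in members that were not mixed. Dpt, a matrix protein, stood at 53.4, 263, 411 and 249.8 CPM in members, against 554 CPM in mural and 297 CPM in fibroblast barcodes. Of the 10, Cxcl12, Gja4 and Tpm2, a tropomyosin, were also called without mixed barcodes (Tpm2 2.63 ± 0.81 SE, adjusted p = 0.0322), where the other 7 had too few counts to be tested.

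Cxcl12, a chemokine of arterial endothelium and stromal cells, stood at 199.9, 68.5, 108 and 30.0 CPM in members and 2.37, 0, 0 and 1.47 CPM in Aqp1-zero barcodes. All member sums were above all Aqp1-zero sums, and the anterior one was lowest. The log2 fold change was 6.70 ± 0.55 SE, adjusted p = 7.53e-05 with all members and 7.30 ± 0.60 SE, adjusted p = 9.12e-12 without mixed ones, where members stood at 252, 122 and 41.3 CPM in the posterior library and lanes 1 and 2. Outside endothelium the highest level was 57.4 CPM, in fibroblast barcodes. Cxcr4, the receptor for Cxcl12, was also higher, at 76.1, 57.1, 29.3 and 60 CPM in members and 0, 4.61, 0 and 13.2 CPM in Aqp1-zero barcodes (log2 fold change 3.66 ± 0.52 SE, adjusted p = 0.00231; without mixed barcodes 4.82 ± 0.69 SE, adjusted p = 2.76e-06). Ackr3, a scavenging receptor for Cxcl12, had a log2 fold change of 2.16 ± 0.31 SE, adjusted p = 0.00227 and 1.92 ± 0.41 SE, adjusted p = 0.00104 in the same fits.

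Gpihbp1, the endothelial protein that holds lipoprotein lipase on the capillary wall, stood at 96.8, 68.5, 39.1 and 0 CPM in members and 2.37, 0.923, 0 and 0 CPM in Aqp1-zero barcodes. It was detected in members of 3 libraries and at 0 in the 5 anterior ones. Its log2 fold change was 5.88 ± 0.52 SE, adjusted p = 0.000257 with all members and 6.68 ± 0.60 SE, adjusted p = 6.63e-11 without mixed barcodes, and no other class had more than 2.33 CPM. Ramp3, a partner protein of the calcitonin receptor-like receptor for adrenomedullin, stood at 594, 337, 225 and 20 CPM in members and 33.2, 22.1, 11 and 11.8 CPM in Aqp1-zero barcodes, with log2 fold changes of 3.8 ± 0.38 SE, adjusted p = 0.00027 and 5.15 ± 0.25 SE, adjusted p = 5.27e-19. Thinned to 2000 UMIs, 60.1% of members and 4.44% of Aqp1-zero barcodes had a Ramp3 UMI (82.7% and 13.0% at full depth). Cd300lg, a sialomucin of capillary endothelium, stood at 66.6, 40.0, 19.6 and 0 CPM in members and 0, 1.85, 1.57 and 0 CPM in Aqp1-zero barcodes. For Cd300lg the log2 fold change was 4.75 ± 0.65 SE, adjusted p = 0.00259 with all members and 5.35 ± 0.68 SE, adjusted p = 2.27e-07 without mixed barcodes.

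**Figure D4:**
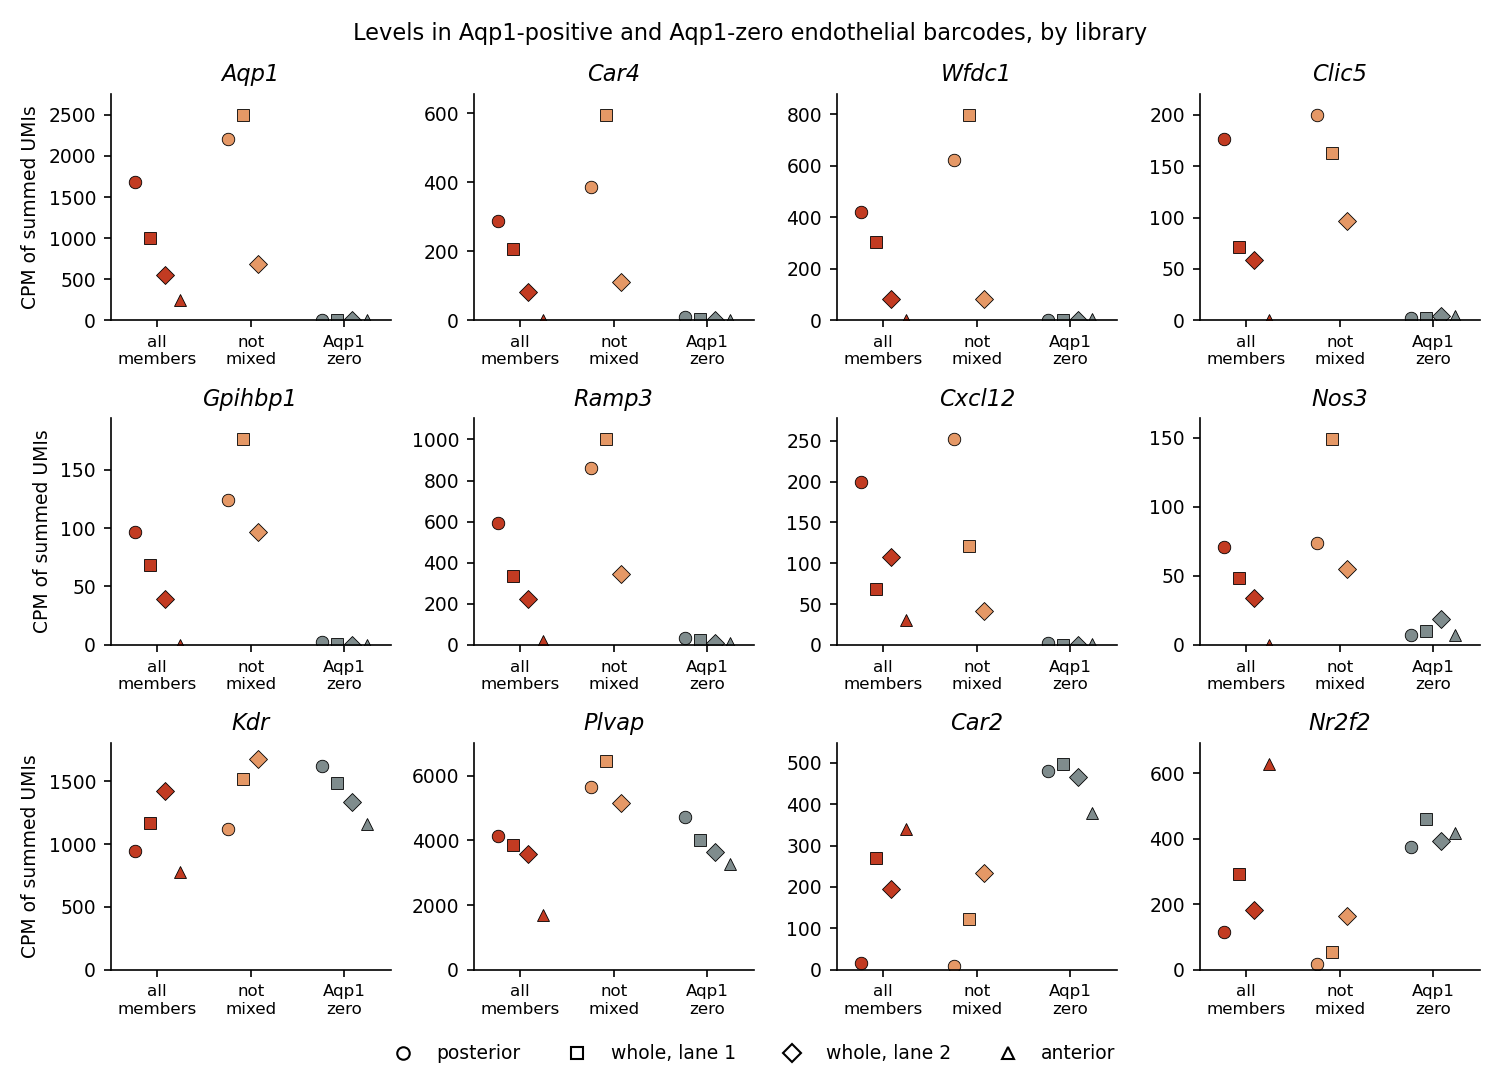
Level of 12 genes (vertical axes, CPM of summed UMIs) in all Aqp1-positive barcodes, those not mixed and Aqp1-zero barcodes, with 1 point a library. Car4, Wfdc1, Clic5, Gpihbp1 and Ramp3 are near 0 in Aqp1-zero barcodes of all 4 libraries, Kdr and Plvap overlap between groups over the libraries, and Car2 and Nr2f2 are lower in Aqp1-positive barcodes except in the anterior library for Nr2f2.

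The capillary list (15 genes, 11 tested) had 5 higher and 0 lower with all members and 4 higher and 0 lower of 10 tested without mixed barcodes, with medians of 1.09 and 0.38 on the log2 scale against -0.0062 and -0.0087 over all genes. Gpihbp1, Cd300lg and Ramp3 were called in both. Sparcl1, a matrix-associated protein, and Lpl, lipoprotein lipase itself, were called with all members only. Lpl stood at 112, 137, 44.0 and 169.9 CPM in members and 42.7, 18.5, 11 and 11.8 CPM in Aqp1-zero barcodes, and at 20.4, 13.5 and 13.8 CPM in members of the posterior library and lanes 1 and 2 that were not mixed; mural barcodes had 277 CPM of it and fibroblast barcodes 194 CPM. Sparcl1 was under the size threshold without the anterior library (log2 fold change 0.97). Btnl9 was called without mixed barcodes (4.50 ± 1.11 SE, adjusted p = 0.00495) but not with all members (3.18 ± 0.96 SE, adjusted p = 0.0962). In the list of fatty acid handling (16 genes) 3 of 8 tested were higher with all members and 3 of 6 without mixed barcodes, none lower, with medians of 0.015 and 0.56; Gpihbp1 and Tcf15 were in both, Lpl in the first and Scarb1, a lipoprotein receptor, in the second. Tcf15, a transcription factor of capillary lipid uptake, stood at 101, 77.0, 73.4 and 9.99 CPM in members and 19.0, 30.5, 15.7 and 13.2 CPM in Aqp1-zero barcodes. For Tcf15 the log2 fold change was 1.76 ± 0.33 SE, adjusted p = 0.0109 with all members and 2.40 ± 0.37 SE, adjusted p = 7.69e-06 without mixed barcodes. The call for Tcf15 ended without the posterior library (adjusted p = 0.248). Fabp4, a fatty acid binding protein, stood at 2.51, 77.0, 308 and 9.99 CPM in members and 109, 168, 118 and 74.9 CPM in Aqp1-zero barcodes.

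Arterial genes were higher in members or not called. Of 19 listed, 15 were tested and 7 higher with all members, and 13 were tested and 5 higher without mixed barcodes, with medians of 1.25 and 0.83. Gja4, the gap junction protein connexin 37, stood at 197, 103, 97.8 and 40.0 CPM in members and 2.37, 2.77, 1.57 and 5.88 CPM in Aqp1-zero barcodes (4.98 ± 0.46 SE, adjusted p = 0.000186; without mixed barcodes 4.83 ± 0.60 SE, adjusted p = 1.7e-07), and mural barcodes had 338 CPM of it. Alpl, tissue-nonspecific alkaline phosphatase, stood at 228, 139.8, 78.2 and 30.0 CPM in members and 47.4, 45.2, 37.7 and 23.5 CPM in Aqp1-zero barcodes. For Alpl the log2 fold change was 1.70 ± 0.29 SE, adjusted p = 0.00659 with all members and 2.5 ± 0.26 SE, adjusted p = 2.99e-09 without mixed barcodes. The call for Alpl ended without the posterior library (adjusted p = 0.144) or lane 1 (0.0512). Unc5b, a netrin receptor of arterial and sprouting endothelium, stood at 98.1, 45.7, 48.9 and 0 CPM in members and 14.2, 13.8, 9.42 and 14.7 CPM in Aqp1-zero barcodes. For Unc5b the log2 fold change was 1.97 ± 0.44 SE, adjusted p = 0.0283 with all members and 3.07 ± 0.42 SE, adjusted p = 9.98e-07 without mixed barcodes. Without lane 1 or lane 2 its call ended (adjusted p = 0.0907 and 0.0812). Hey1, a Notch target, had log2 fold changes of 1.93 ± 0.42 SE, adjusted p = 0.0234 and 1.98 ± 0.59 SE, adjusted p = 0.0267, and its call ended without lane 1 (adjusted p = 0.0788). Mgp, a matrix protein, and Ltbp4, which binds latent TGF-beta, were called with all members, at 2.34 ± 0.17 SE, adjusted p = 4.67e-05 and 1.43 ± 0.28 SE, adjusted p = 0.0148. Without mixed barcodes they stood at 0.97 and 0.56, and fibroblast barcodes had 37083 CPM and 558 CPM of them; the call for Ltbp4 also ended without the posterior library (adjusted p = 0.0978).

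In the Notch list (15 genes, all tested) 3 were higher with all members and 3 of 11 tested without mixed barcodes, none lower, with medians of 0.69 and 0.37. Notch3 and Heyl, both genes of mural cells, were among the higher ones with all members and left the test without mixed barcodes. Dll1 and Jag2, Notch ligands, were higher without mixed barcodes (2.56 ± 0.61 SE, adjusted p = 0.00332; 1.34 ± 0.37 SE, adjusted p = 0.013), with values of 1.56 ± 0.62 SE, adjusted p = 0.235 and 0.78 ± 0.32 SE, adjusted p = 0.239 with all members. Hes1, the common Notch target, stood at 451, 419, 543 and 509.7 CPM in members and 673, 431, 501 and 438 CPM in Aqp1-zero barcodes, and its groups overlapped.

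Venous and postcapillary genes did not move one way. Of 16 listed, 12 were tested with all members, 4 of them higher and 0 lower (median -0.19), and 9 without mixed barcodes, 2 higher and 2 lower (median -0.24). Nr2f2, the transcription factor of vein identity, stood at 114, 291, 181 and 629.6 CPM in members and 375, 459.6, 392 and 419 CPM in Aqp1-zero barcodes, where the anterior members were above and the other members below all Aqp1-zero sums. Fibroblast barcodes had 548 CPM of Nr2f2. Members that were not mixed stood at 16.7, 54.1 and 165 CPM in the posterior library and lanes 1 and 2, against 402, 449 and 411 CPM in such Aqp1-zero barcodes, and the log2 fold change was -3.24 ± 0.33 SE, adjusted p = 1.15e-09, against -0.64 ± 0.34 SE, adjusted p = 0.423 with all members. Sele, E-selectin, was higher in both fits (1.55 ± 0.35 SE, adjusted p = 0.0279; 2.55 ± 0.38 SE, adjusted p = 4.34e-06), though at 0 in members of lane 2, and its call with all members ended without lane 1 (adjusted p = 0.336) or lane 2 (0.0545). Plau, the urokinase gene, was called in both. For Plau the log2 fold change was 1.64 ± 0.38 SE, adjusted p = 0.0345 with all members and 2.09 ± 0.49 SE, adjusted p = 0.00277 without mixed barcodes. The call for Plau ended without the posterior library (adjusted p = 0.532), lane 1 (0.0712) or lane 2 (0.0914). Ctsc, a cathepsin, was higher with all members and stood at 9.26, 0 and 0 CPM in members that were not mixed. Ch25h, cholesterol 25-hydroxylase, was lower without mixed barcodes (-1.15 ± 0.21 SE, adjusted p = 0.00011).

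More genes were called lower in members once mixed barcodes were left out. Egln3, a prolyl hydroxylase of the oxygen-sensing pathway, stood at 3.14, 34.2, 58.7 and 60 CPM in members and 135, 113, 86.3 and 70.5 CPM in Aqp1-zero barcodes, and at 1.85, 0 and 41.3 CPM in members of the posterior library and lanes 1 and 2 that were not mixed (log2 fold change -4.34 ± 0.54 SE, adjusted p = 1.64e-07, against -2.36 ± 0.68 SE, adjusted p = 0.0806 with all members). Igfbp5, an insulin-like growth factor binding protein, stood at 732, 582 and 2489.8 CPM in members that were not mixed and 5966, 5870.2 and 6283 CPM in such Aqp1-zero barcodes (-2.5 ± 0.19 SE, adjusted p = 1.33e-12). It stood at 4147, 3947, 3276 and 5007 CPM in all members and 5765, 5791, 6104 and 5933 CPM in all Aqp1-zero barcodes (-0.42 ± 0.13 SE, adjusted p = 0.106), and fibroblast barcodes had 20507 CPM of it. Sema3d, a semaphorin, was lower by 3.31 on the log2 scale without mixed barcodes, where Serpinb1a, a protease inhibitor, Brinp1, LOC100362176 and Emilin2, an extracellular glycoprotein, were lower by 4.0, 3.45, 3.24 and 3.22. None of these 5 was called with all members, where the adjusted p-values lay between 0.0689 and 0.13.

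Genes lower in both fits included P3h2, a collagen prolyl hydroxylase, Mal, a membrane-raft proteolipid, Lrrc3, Gas7, Lrp11, Pgm5 and Slc10a1, a bile acid transporter. Mal stood at 23.3, 103, 215 and 169.9 CPM in members and 348, 336, 333 and 319 CPM in Aqp1-zero barcodes (-2.01 ± 0.47 SE, adjusted p = 0.0349; -2.13 ± 0.31 SE, adjusted p = 3.39e-06), with every member sum below every Aqp1-zero sum. Slc10a1 stood at 52.8, 134, 122 and 20 CPM in members and 247, 223, 248 and 197 CPM in Aqp1-zero barcodes (-1.64 ± 0.32 SE, adjusted p = 0.0135; -1.52 ± 0.26 SE, adjusted p = 6.24e-05), also without overlap. Each of these calls with all members rested on a library. Without the posterior library the adjusted p was 0.189 for P3h2, 0.0982 for Lrrc3, 0.0597 for Gas7, 0.377 for Lrp11, 0.251 for Pgm5 and 0.185 for Slc10a1, and without lane 1 it was 0.12 for Mal, 0.0572 for P3h2 and 0.118 for Pgm5. Without lane 2 it was 0.0802 for P3h2 and 0.0651 for Pgm5, and without the anterior library 0.0817 for Lrp11. The unnamed genes AABR07039474.1, AABR07044362.2 and AABR07021704.1 completed the 10 largest lower changes within the limits set for naming, at -1.87, -1.82 and -1.81 on the log2 scale. Without the posterior library the adjusted p was 0.488 for AABR07039474.1 and 0.275 for AABR07044362.2. The first also lost its call without the anterior library (0.0705) or lane 2 (0.0893), and the second without lane 1 (0.0933) or lane 2 (0.0846).

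LOC100134871 stood at 2159, 325 and 0 CPM in members of the posterior library and lanes 1 and 2 that were not mixed and 14822, 5357 and 9457 CPM in such Aqp1-zero barcodes (log2 fold change -3.88 ± 0.30 SE, adjusted p = 1.09e-12). It stood at 3793, 21399.7, 9448 and 19957 CPM in all members and 13191, 6629, 12789 and 9479.5 CPM in all Aqp1-zero barcodes (0.18 ± 0.46 SE, adjusted p = 0.934). Members that were not mixed were thus below Aqp1-zero barcodes in each of the 3 libraries, whereas the groups with mixed barcodes overlapped. Hba-a2, a haemoglobin alpha chain, has more than 1 entry under its symbol, and the values here are of 1 of them. It stood at 2537, 40.6 and 0 CPM in members of the posterior library and lanes 1 and 2 that were not mixed. Such Aqp1-zero barcodes stood at 5849, 2488 and 9921 CPM (log2 fold change -3.37 ± 0.58 SE, adjusted p = 5.05e-05). Hba-a2 stood at 2739, 10898, 3868 and 11003 CPM in all members and 5205, 2884, 12640.3 and 6361 CPM in all Aqp1-zero barcodes (0.13 ± 0.26 SE, adjusted p = 0.903). The red blood cell panel summed to 6369, 18635, 6812 and 19918 CPM in members and 8251, 4993, 29378 and 13073 CPM in Aqp1-zero barcodes, so the groups overlapped; in members that were not mixed it summed to 6421, 149 and 13.8 CPM. Red cell RNA in droplets and its part in these values was not tested.

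Among genes of water, proton and chloride handling (27 listed, 10 tested), none of the 10 was called with all members (median -0.43), with the marker genes Car4 and Clic5 left out of the count. Without mixed barcodes 1 of 9 was higher and 3 were lower (median -0.23). Car2, the cytosolic carbonic anhydrase, stood at 16.3, 271, 196 and 339.8 CPM in members and 481, 498, 466 and 379 CPM in Aqp1-zero barcodes, all member sums below all Aqp1-zero sums and the posterior one lowest. Its log2 fold change was -3.12 ± 0.38 SE, adjusted p = 1.07e-07 without mixed barcodes, against -1.81 ± 0.68 SE, adjusted p = 0.195 with all members. Car2 thus stood opposite to the membrane-anchored Car4 in the posterior library and in both lanes. Car8, a carbonic anhydrase-like protein without that activity, was lower without mixed barcodes (-1.30 ± 0.32 SE, adjusted p = 0.00532), at 25.9, 67.7 and 275 CPM in the posterior library and lanes 1 and 2, and Slc12a2, the sodium-potassium-chloride cotransporter, was lower as well (-1.25 ± 0.26 SE, adjusted p = 0.000703). Slc9a3r2, a scaffold of the sodium-proton exchanger, was higher (1.01 ± 0.19 SE, adjusted p = 0.000234). Clic4, a relative of Clic5, stood at 532, 479, 377 and 359.8 CPM in members and 422, 396, 377 and 392 CPM in Aqp1-zero barcodes, and its groups overlapped.

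Genes of fenestrae, caveolae and the VEGF response (19 listed) had 2 higher of 14 tested with all members and 4 of 12 without mixed barcodes, none lower, with medians of 0.26 and 0.55. Esm1, a proteoglycan induced by VEGF, stood at 421, 194, 112 and 30.0 CPM in members and 56.9, 49.8, 58.1 and 44.1 CPM in Aqp1-zero barcodes, where the anterior members were below all Aqp1-zero sums. For Esm1 the log2 fold change was 1.87 ± 0.39 SE, adjusted p = 0.0187 with all members and 2.68 ± 0.27 SE, adjusted p = 7.53e-10 without mixed barcodes. The call for Esm1 ended without the posterior library (adjusted p = 0.217) or lane 1 (0.122). Cav1, the main protein of caveolae, stood at 195, 139.8, 137 and 30.0 CPM and 30.8, 64.6, 45.5 and 39.7 CPM in the same groups. For Cav1 the log2 fold change was 1.55 ± 0.37 SE, adjusted p = 0.0355 with all members and 2.20 ± 0.29 SE, adjusted p = 4.67e-07 without mixed barcodes. The call for Cav1 ended without the posterior library (adjusted p = 0.316), lane 1 (0.0698) or lane 2 (0.0749). Nrp1, a co-receptor of Kdr, was higher without mixed barcodes (1.16 ± 0.19 SE, adjusted p = 1.88e-05), where members stood at 923, 961 and 1004 CPM in the posterior library and lanes 1 and 2 and Aqp1-zero barcodes at 434, 435 and 409.5 CPM. Flt1, the decoy VEGF receptor, stood at 1461, 1190.0, 885 and 379.8 CPM in members and 1029, 853, 695 and 690.4 CPM in Aqp1-zero barcodes and was not called in either fit. Vegfc, a lymphatic growth factor, was higher without mixed barcodes (1.72 ± 0.37 SE, adjusted p = 0.00114).

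The tip cell and angiogenic list (18 genes) had 2 higher of 15 tested with all members, and 6 higher and 1 lower of 12 without mixed barcodes, with medians of 1.28 and 1.58. Igfbp3, an abundant growth factor binding protein, stood at 2359.5, 1695, 899.8 and 429.7 CPM in members and 379, 481, 527 and 486 CPM in Aqp1-zero barcodes, the anterior members being level with Aqp1-zero. For Igfbp3 the log2 fold change was 1.47 ± 0.39 SE, adjusted p = 0.0613 with all members and 2.39 ± 0.22 SE, adjusted p = 1.01e-10 without mixed barcodes. Pdgfb, which recruits pericytes, stood at 214, 99.9, 117 and 30.0 CPM in members and 28.4, 60.9, 56.5 and 45.5 CPM in Aqp1-zero barcodes. For Pdgfb the log2 fold change was 1.39 ± 0.43 SE, adjusted p = 0.101 with all members and 2.32 ± 0.31 SE, adjusted p = 5.98e-07 without mixed barcodes. Kcne3, a potassium channel subunit, and Lxn, a carboxypeptidase inhibitor, were also higher without mixed barcodes (3.09 ± 0.70 SE, adjusted p = 0.002; 2.49 ± 0.47 SE, adjusted p = 0.000187), and Adm, adrenomedullin, a ligand of receptors that include Ramp3, was lower (-1.62 ± 0.44 SE, adjusted p = 0.0135). The receptor and signalling list (29 genes) had 1 higher and 1 lower of 21 with all members and 4 higher and 1 lower of 19 without mixed barcodes (medians 0.031 and 0.38). Bmp2 was higher in both (2.69 ± 0.44 SE, adjusted p = 0.00507; 3.12 ± 0.79 SE, adjusted p = 0.00681), with its call lost without the posterior library (adjusted p = 0.0855), and Bmp4 was lower without mixed barcodes (-3.16 ± 0.59 SE, adjusted p = 0.000169). Id1 and Smad6, targets of BMP signalling, and Acvrl1, a BMP receptor of vessels, were higher without mixed barcodes (1.67 ± 0.20 SE, adjusted p = 7.13e-08; 2.09 ± 0.45 SE, adjusted p = 0.00123; 1.41 ± 0.34 SE, adjusted p = 0.00354). Npr1, the natriuretic peptide receptor, was lower with all members only (-1.11 ± 0.27 SE, adjusted p = 0.0401), and its call ended without the posterior library (adjusted p = 0.436) or lane 1 (0.23).

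Junction and adhesion genes (26 listed) had 2 higher and 1 lower of 22 tested with all members and 4 higher and 1 lower of 20 without mixed barcodes (medians -0.081 and 0.15). Jam3, a junctional adhesion molecule, stood at 294, 134, 127 and 89.9 CPM in members and 49.8, 27.7, 34.5 and 36.7 CPM in Aqp1-zero barcodes, without overlap. For Jam3 the log2 fold change was 2.16 ± 0.25 SE, adjusted p = 0.000802 with all members and 2.85 ± 0.27 SE, adjusted p = 2.52e-10 without mixed barcodes. Itga6, the laminin receptor chain, was lower in both fits. For Itga6 the log2 fold change was -1.05 ± 0.26 SE, adjusted p = 0.0408 with all members and -1.26 ± 0.24 SE, adjusted p = 0.000218 without mixed barcodes. The call for Itga6 ended without the posterior library (adjusted p = 0.316), lane 1 (0.0933) or lane 2 (0.0671). Cdh13, a cadherin without a cytoplasmic part, was higher with all members (4.79 ± 0.69 SE, adjusted p = 0.00249), and Cd93 and Podxl, surface glycoproteins, and Itga1, a collagen receptor chain, were higher without mixed barcodes (1.25 ± 0.19 SE, adjusted p = 1.04e-05; 1.08 ± 0.19 SE, adjusted p = 6.5e-05; 1.04 ± 0.20 SE, adjusted p = 0.000233). Of 22 genes of barrier endothelium, 5 were tested with all members and none was called (median -0.20), and Itm2a was lower without mixed barcodes (-2.07 ± 0.26 SE, adjusted p = 1.8e-07; 2 tested, median -0.78). Lyve1, a hyaluronan receptor of lymphatic and some blood endothelium, stood at 61.6, 299.6, 445 and 299.8 CPM in members and 583, 610.0, 632 and 508 CPM in Aqp1-zero barcodes and was lower without mixed barcodes (-1.65 ± 0.29 SE, adjusted p = 6.5e-05). Thinned to 2000 UMIs it was detected in 17.3% of members and 62.6% of Aqp1-zero barcodes (35.7% and 84.9% unthinned). Of 7 lymphatic markers, Pdpn was higher with all members and Lyve1 lower without mixed barcodes.

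Matrix genes (27 listed) had 4 higher and 0 lower of 25 tested with all members (Col18a1, Lamb1, Fn1 and Timp1) and 3 higher (Col4a2, Igfbp7 and Igfbp3) and 2 lower of 21 without mixed barcodes, with medians of 0.51 and 0.34. None of the 4 was called without mixed barcodes. Fibroblast barcodes had 980 CPM of Col18a1, against 0 in members that were not mixed and 115, 57.1, 29.3 and 129.9 CPM in all members. Lamb1 also lost its call without the posterior library (adjusted p = 0.0855) or lane 1 (0.135). Col4a2, a basement membrane collagen, and Igfbp7, a secreted protein of vessels, were higher without mixed barcodes (1.13 ± 0.22 SE, adjusted p = 0.000304; 1.21 ± 0.16 SE, adjusted p = 5.38e-07), and Igfbp5 and Ctgf, connective tissue growth factor, were lower (Ctgf -1.92 ± 0.27 SE, adjusted p = 1.28e-06). Igfbp7 stood at 6550.3, 8161 and 5158 CPM in members that were not mixed and 2528, 3350.1 and 3202 CPM in such Aqp1-zero barcodes.

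Vasoactive and clotting genes (27 listed) had 5 higher and 0 lower of 20 tested with all members and 4 higher and 3 lower of 17 without mixed barcodes (medians 0.024 and -0.26). Nos3, the endothelial nitric oxide synthase, stood at 71.0, 48.5, 34.2 and 0 CPM in members and 7.11, 10.2, 18.8 and 7.35 CPM in Aqp1-zero barcodes, with members above Aqp1-zero in all but the anterior library. For Nos3 the log2 fold change was 2.02 ± 0.47 SE, adjusted p = 0.0337 with all members and 3.01 ± 0.46 SE, adjusted p = 7.39e-06 without mixed barcodes. Its call with all members ended without lane 1 (adjusted p = 0.199). Plat, tissue plasminogen activator, was higher in both (1.03 ± 0.18 SE, adjusted p = 0.00659; 1.37 ± 0.19 SE, adjusted p = 2.22e-06), and without the posterior library its adjusted p was 0.0535. Thbd, thrombomodulin, and Ptgs1, cyclooxygenase 1, were higher without mixed barcodes (1.43 ± 0.21 SE, adjusted p = 3.99e-06; 1.35 ± 0.39 SE, adjusted p = 0.0205), where Ptgs2, cyclooxygenase 2, Tfpi2 and Adm were lower (Ptgs2 -2.57 ± 0.42 SE, adjusted p = 2.77e-05). Gucy1a1 and Ddah2 were called with all members only. Gucy1a1, a subunit of the nitric oxide receptor, was at 3.71, 0 and 0 CPM in members of the posterior library and lanes 1 and 2 that were not mixed and 256 CPM in mural barcodes. Ddah2 lost its call without the posterior library (adjusted p = 0.139) or lane 1 (0.0534).

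Of 38 endothelial transcription factors, 30 were tested with all members, 3 higher and 1 lower (median -0.13), and 29 without mixed barcodes, 4 higher and 4 lower (median 0.11). Tcf15 and Prdm1 were higher and Lyl1 lower in both fits. Prdm1 stood at 59.1, 57.1, 53.8 and 20 CPM in members and 21.3, 18.5, 18.8 and 11.8 CPM in Aqp1-zero barcodes (1.5 ± 0.30 SE, adjusted p = 0.0153; 2.19 ± 0.44 SE, adjusted p = 0.000517), and lost its call without the posterior library (adjusted p = 0.214) or lane 1 (0.0758). Lyl1 (-1.01 ± 0.25 SE, adjusted p = 0.0408; -1.80 ± 0.40 SE, adjusted p = 0.00183) lost its call without the posterior library (adjusted p = 0.355), lane 1 (0.109) or lane 2 (0.063). Sox18 and Meox1 were higher without mixed barcodes (1.24 ± 0.21 SE, adjusted p = 3.98e-05; 1.51 ± 0.43 SE, adjusted p = 0.0193), and Nr2f2 and Foxc1 lower (Foxc1 -1.05 ± 0.28 SE, adjusted p = 0.0118). Nr2f1, a relative of Nr2f2, was higher with all members and stood at 7.41, 0 and 0 CPM in members that were not mixed.

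The list of ligands made by vessels held 34 genes, among them Ednra, which encodes an endothelin receptor and not a ligand. With all members 7 of 21 tested were higher, Ednra among them, and 0 lower. Without mixed barcodes 7 of 15 were higher and 3 lower (medians 1.22 and 0.18). Kitlg, the KIT ligand, stood at 488, 219.7, 176 and 70.0 CPM in members and 116, 62.8, 61.2 and 76.4 CPM in Aqp1-zero barcodes, the anterior member sum lying within the Aqp1-zero range. For Kitlg the log2 fold change was 1.57 ± 0.31 SE, adjusted p = 0.0142 with all members and 2.32 ± 0.23 SE, adjusted p = 6.32e-10 without mixed barcodes. The call for Kitlg ended without the posterior library (adjusted p = 0.191) or lane 1 (0.052). Sema3c, a secreted guidance protein, stood at 40.9, 25.7, 24.5 and 0 CPM and 2.37, 0.923, 0 and 0 CPM in the same groups. For Sema3c the log2 fold change was 4.66 ± 0.71 SE, adjusted p = 0.00478 with all members and 5.19 ± 0.87 SE, adjusted p = 3.33e-05 without mixed barcodes. Tgfb2 was higher in both (1.87 ± 0.31 SE, adjusted p = 0.00556; 1.89 ± 0.37 SE, adjusted p = 0.000309). Tgfb2 lost its call without the posterior library (adjusted p = 0.257). Inhbb, an activin subunit, was higher without mixed barcodes (1.16 ± 0.31 SE, adjusted p = 0.0104), where Wnt2 was lower (-2.77 ± 0.64 SE, adjusted p = 0.00277). Igf1, Hgf and Ednra were called with all members only. Igf1 stood at 519, 348, 239.6 and 469.7 CPM in members, at 64.9, 189 and 193 CPM in members of the posterior library and lanes 1 and 2 that were not mixed, and at 1400 CPM in fibroblast barcodes.

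Chemokines and inflammatory adhesion genes (25 listed) had 8 higher and 0 lower of 21 tested with all members and 5 higher and 2 lower of 20 without mixed barcodes (medians 0.80 and 0.34). Ccl7 was called with all members only and Cxcl1 was lower without mixed barcodes only. Il6 was higher in both, at 153, 62.8, 44.0 and 149.9 CPM in members and 30.8, 12.0, 23.5 and 29.4 CPM in Aqp1-zero barcodes (2.16 ± 0.26 SE, adjusted p = 0.000891; 2.66 ± 0.33 SE, adjusted p = 1.1e-07), although members of lane 2 that were not mixed had none. Tnfaip3, an inhibitor of NF-kappaB, was higher in both. For Tnfaip3 the log2 fold change was 1.39 ± 0.33 SE, adjusted p = 0.0352 with all members and 1.17 ± 0.36 SE, adjusted p = 0.0336 without mixed barcodes. The call for Tnfaip3 ended without the anterior library (adjusted p = 0.111), the posterior library (0.279) or lane 1 (0.0881). Ccl2 stood at 233, 245, 381 and 3568 CPM in members, led by the anterior library, and at 40.8, 0 and 0 CPM without mixed barcodes. Cxcl2, a neutrophil chemokine, was higher with all members (1.72 ± 0.20 SE, adjusted p = 0.000824) and lower without mixed barcodes (-1.97 ± 0.58 SE, adjusted p = 0.0239), and macrophage barcodes had 1893 CPM of it. Of the immediate early genes (16 listed, 14 tested in each fit) Nr4a1 was higher in both (1.03 ± 0.18 SE, adjusted p = 0.00862; 1.14 ± 0.20 SE, adjusted p = 6.9e-05), its call lost without the posterior library (log2 fold change 0.83), with list medians of 0.028 and -0.22. Of 27 genes of interferon response and antigen presentation, 24 were tested and none called with all members, and Ifit2 and Gbp2 were higher of 19 without mixed barcodes (medians 0.32 and 0.25). Of 14 cell cycle genes Ccnd2, cyclin D2, was higher in both fits (1.76 ± 0.27 SE, adjusted p = 0.00394; 1.25 ± 0.37 SE, adjusted p = 0.0227; 9 and 6 tested, medians 0.37 and 0.20). Of 13 genes of glycolysis and glucose uptake, Hk2, a hexokinase, was higher with all members (11 tested, median -0.094), and none of 9 was called without mixed barcodes (median 0.16). Some genes belong to more than 1 list.

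Further genes without a list were among those that led the higher calls when mixed barcodes were left out. Ces2, a carboxylesterase, stood at 39.6, 28.5, 29.3 and 0 CPM in members and had no UMI in Aqp1-zero barcodes of any library. Had the Aqp1-zero group held 3 counts, the ratio would be 33.1, which is not a lower limit of an interval. Tmem45b stood at 41.5, 37.1, 0 and 0 CPM and was also without a UMI in Aqp1-zero barcodes. Tmem150c stood at 157, 94.2, 34.2 and 0 CPM in members and 2.37, 3.69, 0 and 4.41 CPM in Aqp1-zero barcodes. For Tmem150c the log2 fold change was 4.59 ± 0.56 SE, adjusted p = 0.00102 with all members and 5.95 ± 0.50 SE, adjusted p = 1.34e-11 without mixed barcodes. Rbp7, a cellular retinol-binding protein, stood at 89.3, 37.1, 24.5 and 0 CPM in members and 4.74, 2.77, 0 and 2.94 CPM in Aqp1-zero barcodes (3.77 ± 0.55 SE, adjusted p = 0.00266; 4.99 ± 0.60 SE, adjusted p = 7.13e-08), and Slc28a2, a purine nucleoside transporter, at 125, 77.0, 44.0 and 0 CPM in members and 7.11, 1.85, 9.42 and 11.8 CPM in Aqp1-zero barcodes (3.25 ± 0.55 SE, adjusted p = 0.00643; 5.48 ± 0.47 SE, adjusted p = 2.12e-11), its call with all members lost without lane 1 (adjusted p = 0.0631). The 5 anterior members had 0 UMIs of each of these genes. Without the posterior library Gpihbp1, Cd300lg, Rbp7, Sema3c, Tmem150c, Ces2, Tmem45b, Slc28a2, Nos3, Hey1, Unc5b and Sele had too few counts to be tested (Tmem45b also without lane 1), while Cxcl12, Ramp3, Gja4, Cxcr4 and Jam3 were called under each library left out.

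**Figure D5:**
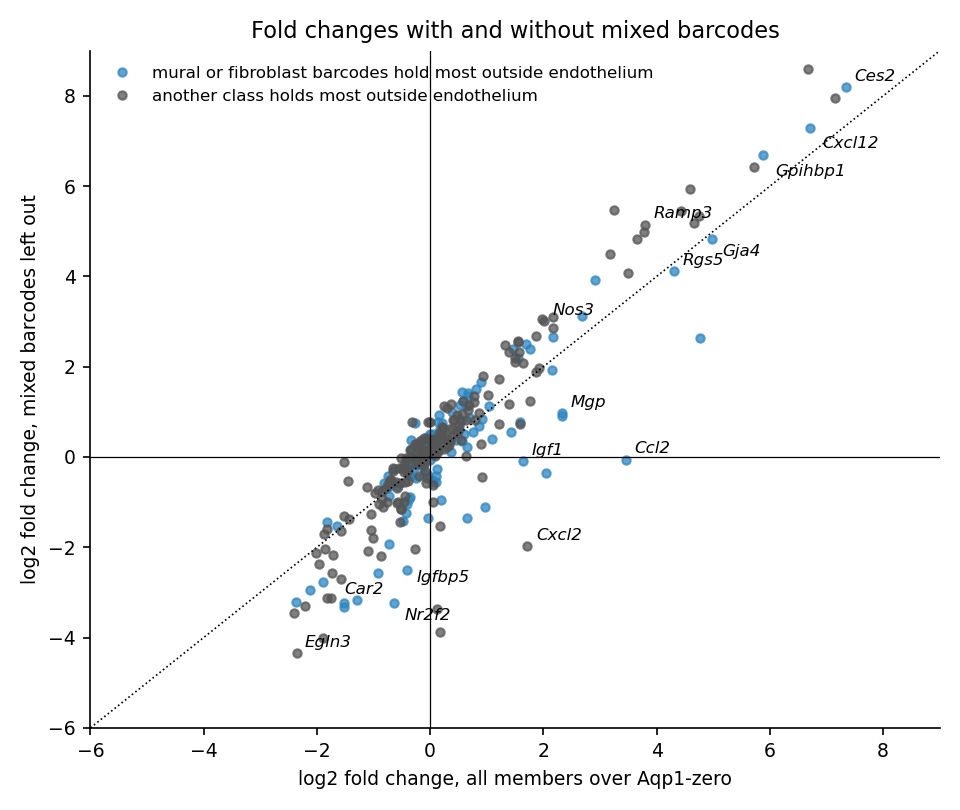
Log2 fold change of the named and listed genes, Aqp1-positive over Aqp1-zero, with all members (horizontal axis) and with mixed barcodes left out (vertical axis); the dotted line marks equal values and colours mark the class with the highest level outside endothelium. Cxcl12, Gpihbp1, Ces2, Ramp3 and Gja4 are high on both axes, Ccl2, Igf1 and Mgp are high on the horizontal axis and near or under 1 on the vertical one, and Nr2f2, Igfbp5 and Car2 lie lower on the vertical axis.

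The direction of the called genes was counted in the same libraries that made the calls. Agreement was thus partly built in, and the counts are a description, not support for the calls. Of the 354 genes called higher with all members, 281 (79.4%) were higher in members of all 4 libraries, with 354 in the posterior library, 352 and 335 in lanes 1 and 2 and 296 in the anterior library. Of the 51 called lower, 46 (90.2%) were lower in all 4. With mixed barcodes left out, 191 of 225 higher calls (84.9%) and 154 of 184 lower calls (83.7%) had their direction in the posterior library and both lanes.

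Some calls with all members ended under other settings, beside the libraries left out that are named with each gene. With DESeq2's Wald test, where 211 genes were higher and 8 lower, the adjusted p was 0.498 for Ccl19, 0.374 for Hey1, 0.257 for Tcf15, 0.35 for Prdm1, 0.9999 for Ces2, 0.9999 for Tmem45b, 0.103 for Slc28a2, 0.822 for Unc5b and 0.63 for Nos3. Also with DESeq2 the calls of P3h2, AABR07039474.1, AABR07044362.2, Lrp11, Pgm5, Esm1, Cav1, Sele, Plau, Npr1, Itga6, Ddah2, Lyl1, Tnfaip3 and Kitlg ended, at adjusted p-values of 0.0833 to 0.498. Cxcl12, Gpihbp1, Ramp3 and Gja4 kept their calls with DESeq2. With members taken from 1 Aqp1 UMI, the calls of P3h2, Mal, AABR07039474.1, AABR07044362.2, AABR07021704.1, Gas7, Lrp11, Pgm5, Slc10a1, Esm1, Cav1, Sparcl1, Plau, Npr1, Hey1, Itga6, Tcf15, Plat, Ddah2, Lyl1, Nr4a1, Tnfaip3, Kitlg, Unc5b and Nos3 ended. With hormone genes each under 2% of UMIs, those of P3h2, Mal, AABR07039474.1, AABR07044362.2, Pgm5, Cav1, Sele, Npr1, Hey1, Itga6, Lyl1, Tnfaip3 and Unc5b ended. With no library block, those of P3h2, Mal, AABR07044362.2, Pgm5, Slc10a1, Ltbp4, Sele, Itga6, Fn1, Lyl1, Nr4a1, Ccl2, Tnfaip3 and Kitlg ended. Without both lanes, AABR07044362.2, Cav1, Sele, Plau, Npr1, Itga6, Tcf15, Ddah2, Lyl1 and Prdm1 lost their calls. At 3000 to 20000 UMIs a barcode, Sparcl1, Sele, Plau, Npr1, Timp1, Ddah2, Nr4a1, Ccl2 and Tnfaip3 lost theirs, and with every barcode thinned to 2000 UMIs AABR07044362.2, Sparcl1, Ltbp4, Lamb1, Lyl1, Nr4a1, Cxcl2, Tnfaip3 and Ccnd2 did. At a mitochondrial limit of 10% the calls of Cav1, Tnfaip3 and Nos3 ended, against barcodes with 0 or 1 Aqp1 UMIs those of Pgm5, Npr1, Itga6 and Plat, and from 3 Aqp1 UMIs those of AABR07044362.2 and Plau. Pgm5 lost its call with 4 vessel genes, Lyl1 with RLE normalization, Sparcl1 with the dissected libraries summed, and Plat and Nr4a1 with no filter on low counts. With barcodes of any mural, fibroblast or macrophage marker left out, Lrrc3, AABR07044362.2, Sparcl1, Mgp, Sele, Npr1, Timp1, Lyl1, Prdm1, Ccl2, Il6 and Ccnd2 lost their calls.

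Members of the posterior library were set beside the 5 anterior members as a description, with 1 library a lobe and no test. Among 3613 genes with at least 50 CPM in either, 287 (7.94%) were past 2-fold higher and 347 (9.6%) past 2-fold lower in posterior members, with an exact counting interval outside 1. With every barcode thinned to 2000 UMIs, 41 genes were past that limit higher and 154 lower. The number of eligible genes at that depth is not reported here, so these counts are not shares. The thinned anterior sum holds only 5 barcodes of 2000 UMIs each. Unthinned median depths were 5800 UMIs in posterior and 23093 UMIs in anterior members. The named higher genes had no UMI in the anterior members, so their ratios are lower bounds against 3 counts. Depp1, a target of FOXO factors, was at least 8.94-fold higher, at 331 CPM in posterior members, 82.8 and 48.9 CPM in the lanes and 0 in anterior members. Pi16, a peptidase inhibitor gene, was at least 8.07-fold higher, Cxcl14 at least 5.92-fold, Inhbb at least 4.50-fold, Tmem150c at least 4.21-fold and Akr1cl at least 3.99-fold. Ccl4 and Ccl3, macrophage chemokines, were at least 8.90-fold and 4.91-fold higher, beside macrophage markers at 810 CPM in posterior and 0 in anterior members.

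Genes lower in posterior than in anterior members were led by Slpi, a protease inhibitor, at 1.89 CPM in posterior and 849 CPM in anterior members (ratio 0.00222, interval 0.000449 to 0.00671), and by Ccl19, at 5.66 CPM in posterior and 1429 CPM in anterior members. Car2 stood at 16.3 CPM in posterior and 339.8 CPM in anterior members (ratio 0.0481, interval 0.0277 to 0.0826), and Adra2a, an adrenergic receptor, Foxq1, Slc43a3, MGC105649 and Hist2h3c2 had ratios between 0.00898 and 0.0489. The anterior members held only 9 UMIs of Adra2a, 7 of Foxq1, 9 of Slc43a3, 7 of MGC105649 and 22 of Hist2h3c2. Aqp1-zero barcodes had 481 CPM of Car2 in the posterior and 379 CPM in the anterior library. The anterior sum rests on 5 barcodes, all mixed. Fibroblast markers summed to 2582 CPM in posterior and 3948 CPM in anterior members, and their part in these ratios was not tested.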

How the data were processed

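Single-cell 3′ RNA was measured in 4 libraries of female rat pituitary, 1 of posterior lobe, 2 lanes of whole gland and 1 of anterior lobe. The authors deposited UMI counts per gene and barcode, not normalized, for 32883 genes in 1 aggregated table, with a list of barcodes whose suffix gives the library. Cell Ranger 3.1 was used, per the submitters' processing notes; the genome build and whether depth was equalized on aggregation are not given in the sources used here. Members were found by the stated rule. The members, gene lists and marker panels were chosen with earlier results of these data known, and the exclusion of mixed barcodes, with up to 10 genes named in each direction from it, after its values were seen.

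UMIs of members and of Aqp1-zero barcodes were summed by library, the lanes joined into 1 block, and tested with edgeR 4.0.16 (R 4.3.3; TMM scaling, low-count filter, library as block, quasi-likelihood test, Benjamini-Hochberg adjustment over all genes tested). A call needed an adjusted p under 0.05 and a log2 fold change of at least 1 in size. CPM are UMIs scaled to a common total per sum. Named genes were the 10 largest calls in each direction with at least 50 CPM in the higher group, the same direction in all 3 blocks and a level of at least 10% of that in the class with most, and up to 4 genes of each list, called ones first; further list members were named after their values were seen, and some genes are not reported here. The fit was tested on simulated data for this comparison: 37 of 100 genes changed 2-fold, 86 of 100 changed 4-fold and 1 of 7538 unchanged genes were called. Its counts were drawn at the spread fitted over genes of like level, with the same change in every library. Changes were set only in genes with enough expected counts. The simulation covered the fit with all members, not the fit without mixed barcodes. Binomial intervals are exact, at 95%. Doublets were kept, with a Scrublet score cut as an alternative. Of 20346 kept barcode sequences, 35 occurred in more than 1 library. Alternatives also covered normalization, the filter, DESeq2 1.42.0, thresholds of the rule, depth and each library left out.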

Additional observations from a re-analysis of the deposited data

Results flagged for a closer look

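For 7 genes the ratio of members over Aqp1-zero barcodes lay on opposite sides of 1 in the posterior and the anterior library. The anterior ratios rest on 5 barcodes, all mixed, and the difference between libraries was not tested. Flt1, the decoy VEGF receptor, had a ratio of 1.42 in the posterior and 0.550 in the anterior library, and Ccnd1, cyclin D1, 1.54 and 0.595. The other 5 genes were lower in posterior and higher in anterior members. Foxq1 had ratios of 0.147 and 9.52 (7 UMIs in anterior members), Bmp4 of 0.108 and 2.89, and Nr2f2 of 0.305 and 1.5. LOC100134871 had ratios of 0.288 and 2.11, and Hba-a2, a haemoglobin alpha chain, of 0.526 and 1.73.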

How the results depend on the processing

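Members and Aqp1-zero barcodes were paired by library through the block; with no library block 33 genes were lower, against 51. Other counts of genes higher in members, against 354, were 211 with DESeq2, 231 without the whole-gland block, 535 with the dissected libraries summed, 108 thinned to 2000 UMIs, 225 with mixed barcodes left out, 135 with barcodes of any mural, fibroblast or macrophage marker left out and 103 with mixed barcodes left out and thinned. Other counts of lower genes were 145 with no filter, 8 with DESeq2, 173 with the dissected libraries summed, 7 at an Aqp1 threshold of 1 UMI, 31 against barcodes with 0 or 1 Aqp1 UMIs, 15 with hormone genes each under 2%, 110 at 3000 to 20000 UMIs, and 184 and 96 with mixed and any-marker barcodes left out. Leaving out 1 library in turn gave 157 to 361 higher and 6 to 70 lower genes. With mixed barcodes left out the share of members was 72.9% posterior, 13.8% in lane 1 and 0 anterior, and thinned it was 0 anterior. Thinned, 41 genes were higher and 154 lower in posterior than in anterior members, against 287 and 347 of 3613 unthinned. The number of eligible genes when thinned is not reported here. With RLE normalization 128 of 129 named genes kept their side of the threshold and direction, with DESeq2 104, and without the posterior library 77 of 111. The causes were not tested.

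Log2 fold changes that turned sign in some leave-out of 1 library ranged over the leave-outs as follows. Values were Flt1 -0.0379 to 0.52, Slco1a4 -0.0666 to 0.38, Foxq1 -0.27 to 0.29, Hes1 -0.23 to 0.17 and Fos -0.20 to 0.00614. Others were Hspb1 -0.35 to 0.0322, Bst2 -0.11 to 0.19, Ccnd1 -0.10 to 0.44, Pgk1 -0.0615 to 0.20 and LOC100134871 -0.39 to 1.07. Others were Hba-a2 -0.60 to 0.68 and Ch25h -0.91 to 0.0571. Values that turned sign under other alternatives follow. Without the whole-gland block, Flt1 was -0.0398, Foxq1 0.10 and LOC100134871 -0.29. With the dissected libraries summed, Hspb1 was 0.16, Bst2 -0.0296, LOC100134871 -0.0859 and Hba-a2 -0.21. With DESeq2, Slc2a1 was 0.16. With no library block, Slc2a1 was 0.13. Against barcodes with 0 or 1 Aqp1 UMIs, Foxq1 was 0.00972, LOC100134871 -0.14 and Hba-a2 -0.0849. At 3 Aqp1 UMIs, LOC100134871 was -0.87 and Hba-a2 -0.50. At 1 Aqp1 UMI, Hes1 was 0.0157. With 4 endothelial markers, Foxq1 was 0.00273. At a mitochondrial limit of 10%, Foxq1 was 0.32. At 3000 to 20000 UMIs, Vim was -0.11, Pgk1 -0.00092, LOC100134871 -0.36 and Hba-a2 -0.46. Thinned, Pcna was 0.12, Pgk1 -0.12, LOC100134871 -0.21 and Hba-a2 -0.28. With mixed barcodes left out, Hspb1 was 0.29, Ccl2 -0.0598, Cxcl2 -1.97, Igf1 -0.0922, Ldha 0.0136, LOC100134871 -3.88 and Hba-a2 -3.37. With any-marker barcodes left out, Ltbp4 was -0.0707, Hes1 0.14, Cd34 0.32, Hspb1 0.18, Cxcl2 -1.14, Igf1 -1.42, Ldha 0.00957, LOC100134871 -10.59 and Hba-a2 -14.73. With mixed barcodes left out and thinned, Ltbp4 was -0.41, Hspb1 0.24, Pgk1 -0.16, LOC100134871 -3.12 and Hba-a2 -2.53.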

Other observations

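Among fibroblast barcodes, Aqp1 ran in another order over the libraries than in endothelial barcodes. An Aqp1 UMI was found in 12 of 131 fibroblast barcodes in the posterior library (9.16%, exact 95% interval 4.82 to 15.5%), 12 of 38 in lane 1 (31.6%), 13 of 32 in lane 2 (40.6%) and 14 of 26 in the anterior library (53.8%, 33.4 to 73.4%). Their summed levels were 29.6, 493, 272 and 653 CPM in the same order. Fibroblast barcodes were thus lowest in the library where endothelial barcodes were highest, at full depth and with no test between libraries. Mural barcodes, few in number, were also lowest in the posterior library, with an Aqp1 UMI in 5 of 22. The counts were 8 of 14 in lane 1, 5 of 6 in lane 2 and 3 of 6 in the anterior library. Their summed levels were 105, 860, 1321 and 431 CPM in the order of the fibroblast values. Not every other class was lowest in the posterior library. An Aqp1 UMI was found in 6.25% of folliculostellate barcodes in the posterior library, 1.89% and 2.02% in lanes 1 and 2 and 3.38% in the anterior library, and in 2.01%, 0.391%, 0.287% and 0.482% of somatotroph barcodes in the same order, so both were highest in the posterior library.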
